A study of Mus musculus with 9 samples.

Results

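The genes of sterol and fatty acid synthesis that are driven by the SREBP transcription factors were followed in mouse articular chondrocytes that overexpressed OSCAR, with or without 5-aminosalicylic acid (5-ASA). The members were chosen by name, 35 of the 55471 genes in the files, and each was found as 1 gene. There were 19 enzymes of the mevalonate and sterol pathway, 6 genes of sterol sensing and uptake, and 10 genes of fatty acid synthesis, elongation and desaturation. All 35 passed the filter on low counts.

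Primary chondrocytes, which produce the matrix of cartilage, were isolated from knee cartilage (condyles of the femur and plateaus of the tibia) of wild-type mice at postnatal day 5. They were cultured in medium with fetal bovine serum. The study's methods give ICR or C57BL/6 J mice without saying which for these cells. Its reporting summary gives ICR pups of both sexes for primary chondrocytes. RNA-seq was performed on 3 cultures each of Control cells, Ad-OSCAR cells and Ad-OSCAR + 5-ASA cells. Ad-OSCAR is an adenovirus carrying OSCAR, a collagen receptor, and the Control cells received the control virus Ad-Control. All plates were coated with COLpep, a collagen peptide bound by OSCAR, and IL-1β was absent throughout. The labels give 3 days of culture, 2 h of infection at 400 MOI and 36 h before 5-ASA, whereas the study's methods give 2 days, 800 MOI and 24 h with or without 10 µM 5-ASA. The study states in general that n counts independent samples, mice or specimens, and that data came from 3 or more independent experiments. Nothing states that these cultures came from separate animals, so p-values measure only the spread between these samples, which may be technical. No culture of Control cells with 5-ASA was among the 9, so an action of the drug in cells without Ad-OSCAR was not measured.

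SREBP proteins are made as precursors in the membrane of the endoplasmic reticulum, where SCAP escorts them to the Golgi for cleavage when sterols are scarce and INSIG proteins retain the complex when sterols are plentiful. The released fragment enters the nucleus and activates genes of cholesterol synthesis, for which SREBF2 is best known, and of fatty acid synthesis, for which SREBF1 is best known. It usually acts with the factors NF-Y and SP1 bound nearby. Oxysterols formed from cholesterol activate the LXR receptors, which raise cholesterol export.

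Total estimated counts ranged from 19733448 to 28192740 per culture. Oscar, the overexpressed gene, had 0.123 to 0.211 CPM (read counts scaled to the TMM-normalized library size) in Control, 6354 to 7112 CPM in Ad-OSCAR and 2946 to 3723 CPM in Ad-OSCAR + 5-ASA cultures. The defining chondrocyte markers were present in Control, where 10 markers summed to between 42566 and 48350 CPM. They summed to between 3082 and 3477 CPM in Ad-OSCAR and to between 3961 and 4426 CPM in treated cultures. All 10 were lower in Ad-OSCAR than in Control cells (median log2 fold change -4.04), and with 5-ASA 6 were higher than in untreated Ad-OSCAR cells. In the 3 groups, 6 of 7 adipocyte markers were under 1 CPM in every culture. The remaining one, Fabp4, had a mean of 12.5 CPM in Control, 29.9 CPM in Ad-OSCAR and 28.6 CPM in treated cultures. The 7 fibroblast or synovial markers summed to 19766 to 20832 CPM in Control, 14952 to 15880 CPM in Ad-OSCAR and 18006 to 19100 CPM in treated cultures. Singly, 3 of them were higher and 4 lower in Ad-OSCAR than in Control cells, with log2 fold changes from -2.53 to 1.86. With 5-ASA 5 were higher and 1 lower than in untreated Ad-OSCAR cells. Leukocyte, endothelial, osteoclast and muscle markers each summed to at most 18.5 CPM in any culture. In bulk RNA, fewer cells of a type and less RNA per cell cannot be told apart, and the part of the loss of chondrocyte markers in the results below was not tested.

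The promoters of the members were examined for the letters through which SREBP and its partners act. Windows from 250 bases before to 50 bases after the start of transcription (RefSeq, GRCm38.p6) were found for 28 of the 35 members, and Fdps, Fdft1, Sqle, Stard4, Scd1, Scd2 and Fads1 had none. The 28 members had 36 windows, as some have several starts, and a gene counted as matched if any of its windows matched. The stretches before the start are shown for 4 members, in lower case and 5′ to 3′ on the strand of the gene, with the sterol regulatory element and the CCAAT box in capitals. They are Hmgcs1, which matched the element's letters, Mvd, another sterol enzyme that fell, Fasn, the fatty acid synthase, and Insig2, which did not fall. They lie at chr13:119690101-119690350 (Hmgcs1, plus strand), chr8:122443423-122443672 (Mvd, minus strand), chr11:120824548-120824797 (Fasn, minus strand) and chr1:121332590-121332839 (Insig2, minus strand), and none overlapped an exon of GENCODE M21.
Hmgcs1: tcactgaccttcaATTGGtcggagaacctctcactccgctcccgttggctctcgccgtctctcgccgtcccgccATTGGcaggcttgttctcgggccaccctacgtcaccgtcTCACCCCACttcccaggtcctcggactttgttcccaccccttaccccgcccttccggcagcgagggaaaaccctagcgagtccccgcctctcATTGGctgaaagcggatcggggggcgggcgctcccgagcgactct
Mvd: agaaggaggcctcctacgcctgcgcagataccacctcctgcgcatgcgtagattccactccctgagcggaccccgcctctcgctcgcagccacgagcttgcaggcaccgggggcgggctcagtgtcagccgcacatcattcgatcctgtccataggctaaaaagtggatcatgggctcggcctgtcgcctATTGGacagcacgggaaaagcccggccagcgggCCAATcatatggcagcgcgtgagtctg
Fasn: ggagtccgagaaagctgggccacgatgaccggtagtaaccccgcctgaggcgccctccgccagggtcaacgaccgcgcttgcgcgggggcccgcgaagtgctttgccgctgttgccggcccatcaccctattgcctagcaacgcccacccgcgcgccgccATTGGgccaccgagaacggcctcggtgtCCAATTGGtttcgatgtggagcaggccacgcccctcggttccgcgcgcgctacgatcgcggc
Insig2: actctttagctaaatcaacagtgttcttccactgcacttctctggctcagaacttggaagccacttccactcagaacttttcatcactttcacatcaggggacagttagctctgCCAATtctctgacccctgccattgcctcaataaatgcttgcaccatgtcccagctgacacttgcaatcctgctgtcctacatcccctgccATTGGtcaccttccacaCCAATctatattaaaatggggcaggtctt

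In Hmgcs1, TCACCCCAC lay from 137 to 129 bases before the start. It was the only match to the sterol regulatory element TCACNCCAC, searched on both strands, among the 28 members, and 1.36% of the 10882 tested genes with a window had a match. Sites that differ from these letters were not searched, so members without a match may still hold such an element. The CCAAT box, which NF-Y binds, was matched on either strand in 23 of 28 members, against 42.9% of tested genes. It was present in 15 of 16 sterol enzymes, 4 of 5 sensing genes and 4 of 7 fatty acid genes with a window, and it was not matched in Acat2, Scap, Acaca, Elovl6 and Fads2. The upstream stretches above held 3 matches in Hmgcs1, 2 in Mvd, 3 in Fasn, of which the last 2 share bases, and 3 in Insig2. The GC box GGGCGG of SP1 was found in 22 of 28 members and 68.0% of tested genes, and the E-box CACGTG in 6 of 28 members and 11.7% of tested genes. Over all 32817 windows, the shares were 1.24% for the sterol regulatory element, 37.4% for the CCAAT box, 35.6% for the GC box and 7.15% for the E-box. Both members that were higher in Ad-OSCAR cells, Ggps1 and Insig2, had CCAAT boxes. For Insig2 these lay in the window shown, and its other windows, from chr1:121327629 and chr1:121327975, had none.

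Levels between genes were compared per length, by the deposited TPM, in which counts are divided by the gene's effective length and scaled to the same total in every culture. Among the 35 members in Control cells, Scd2, a stearoyl-CoA desaturase, had the highest level with 485 ± 7.49 TPM (SD, n = 3), and Acss2, which makes acetyl-CoA from acetate, the lowest with 10.6 ± 1.55 TPM. Of the sterol enzymes, Fdps, which makes farnesyl diphosphate, was highest with 187 ± 6.37 TPM. It was followed by the HMG-CoA synthase Hmgcs1 with 84.6 ± 5.80 TPM, and their values did not overlap. From Sc5d at rank 7 to Ebp at rank 15, each enzyme overlapped in Control cells with the one above it. In the same cells Srebf1 had 133 ± 8.60 TPM and Srebf2 75.7 ± 5.44 TPM, with no overlap. In Ad-OSCAR cells Fdps was still first among the sterol enzymes with 50.8 ± 3.43 TPM, whereas Cyp51, at rank 6 in Control, stood at rank 15 with 13.3 ± 0.951 TPM. Of the sensing genes, Insig2 took rank 1 in Ad-OSCAR cells with 104 ± 12.9 TPM, above Srebf1 with 63.5 ± 3.81 TPM.

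**Figure D1:**
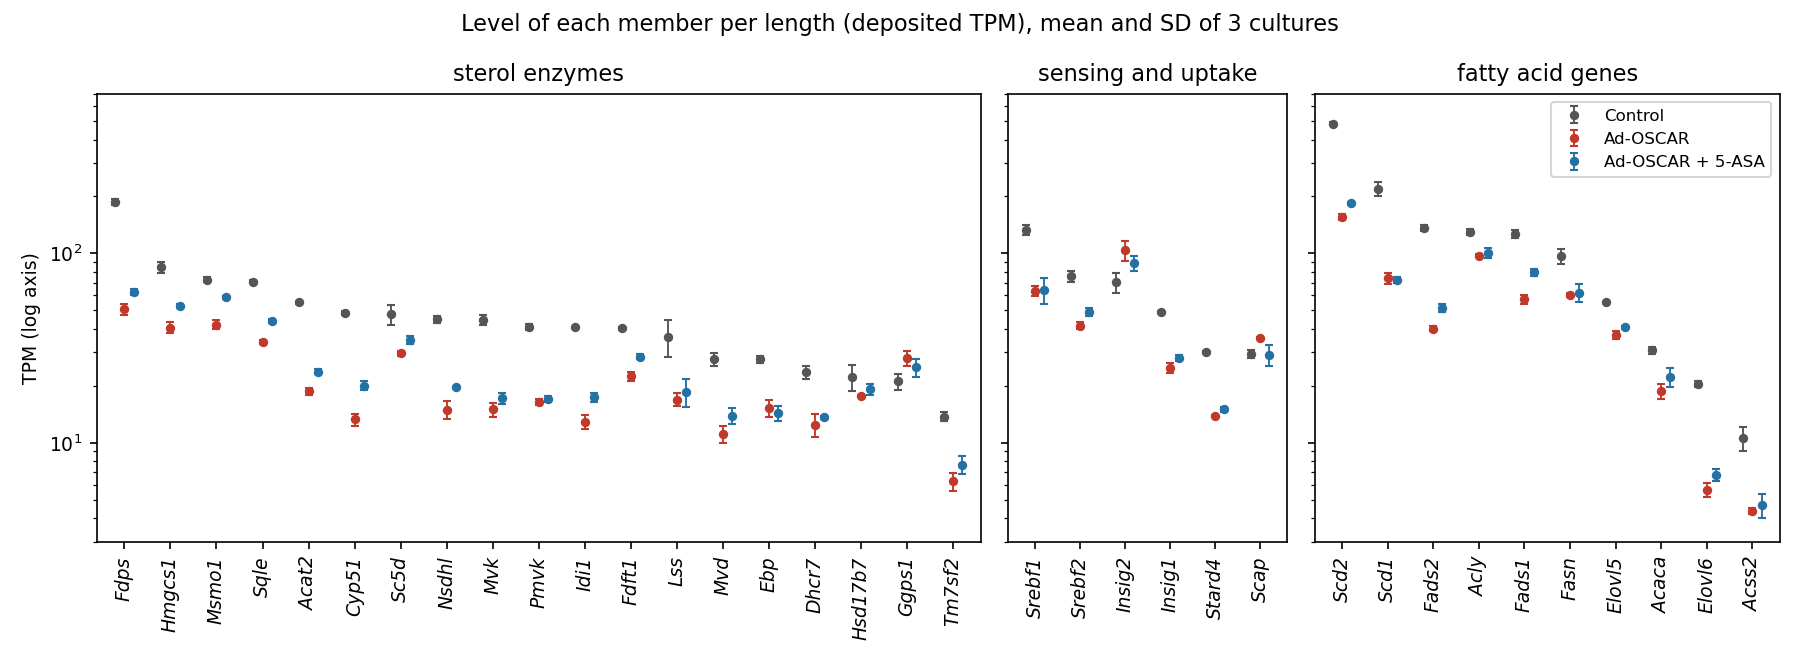
Deposited TPM of each member on a log axis, mean and SD of 3 cultures per group, with the members of each list ordered by their Control level. Most members stood lower in Ad-OSCAR cells than in Control, from Fdps (187 to 50.8 TPM) to Tm7sf2 (13.8 to 6.27 TPM), and Insig2 stood higher (70.4 to 104 TPM).

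The comparison of Ad-OSCAR with Control cells asked how OSCAR overexpression changed these genes. Nearly all members fell: 32 of 35 were lower, 2 were higher and Scap did not pass the test. Over all 15362 genes tested, 32.2% were called lower and 32.7% higher. The median log2 fold change was -1.08 over the 35 members and 0.02 over all genes tested. The members ranged from -1.91 (Fdps) to 0.38 (Insig2) on this scale. The fall passed the study's stricter limit of a log2 fold change beyond 1.5 in 10 members, against 5.39% of all genes. The values of the 3 Ad-OSCAR cultures lay below all 3 Control values in 32 members, against 34.0% of all genes. Calls were made with edgeR's quasi-likelihood test at an adjusted p of 0.05 (Benjamini-Hochberg over all genes tested), and the same test gave the standard errors (SE) below.

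**Figure D2:**
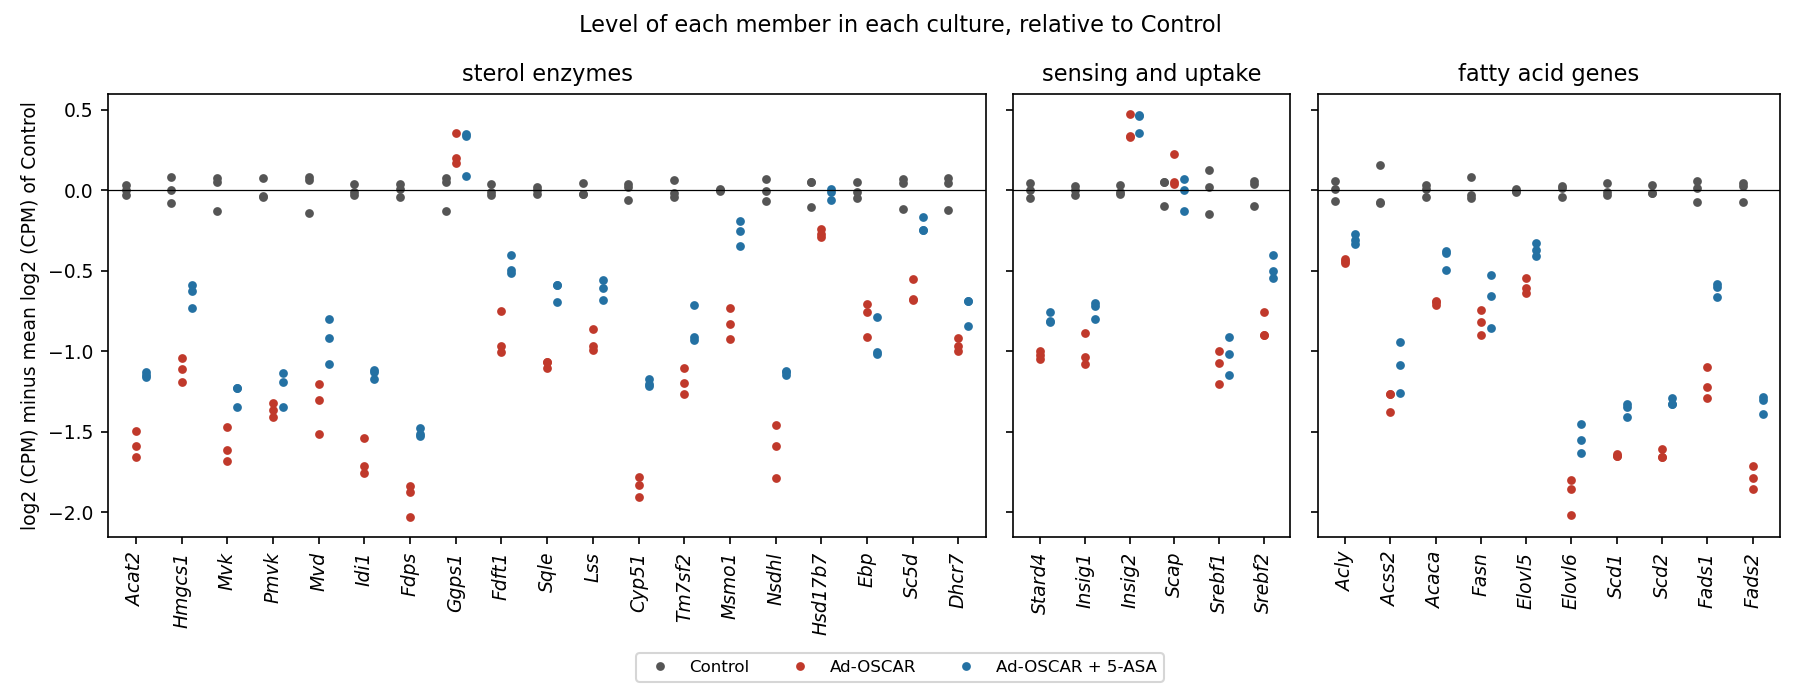
Level of each member in each culture as log2 CPM minus the mean log2 CPM of the 3 Control cultures, with 3 points per group. The Ad-OSCAR points lay below all Control points in 32 members but not in Ggps1, Insig2 and Scap, and the treated points lay above all untreated Ad-OSCAR points in 28 members.

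Among the sterol enzymes, 18 of 19 fell in Ad-OSCAR cells, with a median log2 fold change of -1.12. Fdps had 117, 120.7 and 123 CPM in Control and 32.7, 33.5 and 29.4 CPM in Ad-OSCAR cultures. The groups were far apart, and the Ad-OSCAR mean was 26.5% of the Control mean, a log2 fold change of -1.91 (SE 0.053, adjusted p = 7.26e-16). Cyp51, the lanosterol 14-alpha demethylase, had 95.7, 96.9 and 90.7 CPM in Control and 25.2, 27.4 and 26.5 CPM in Ad-OSCAR cultures. Here too no value of one group reached the other, and the log2 fold change was -1.84 (SE 0.050, adjusted p = 6.28e-16). Idi1, the isopentenyl diphosphate isomerase, had 67.3, 65.2 and 64.4 CPM in Control and 19.4, 22.6 and 19.97 CPM in Ad-OSCAR cultures. All 3 Ad-OSCAR values lay far below Control, a log2 fold change of -1.67 (SE 0.057, adjusted p = 1.45e-14).

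The loss was found along the whole route. Among the enzymes up to farnesyl diphosphate, the acetoacetyl-CoA thiolase Acat2 (-1.58 on the log2 scale), Hmgcs1 (-1.12), the mevalonate kinase Mvk (-1.59), the phosphomevalonate kinase Pmvk (-1.37) and the mevalonate diphosphate decarboxylase Mvd (-1.33) all fell. So did the enzymes from farnesyl diphosphate to lanosterol, with log2 fold changes of -0.91 for the squalene synthase Fdft1, -1.08 for the squalene epoxidase Sqle and -0.94 for the lanosterol synthase Lss. The later steps showed the widest spread. Nsdhl, a sterol dehydrogenase of demethylation at carbon 4, fell by 1.61 on the log2 scale, and Tm7sf2, a sterol C14 reductase, by 1.19. Dhcr7, which makes cholesterol from 7-dehydrocholesterol, fell by 0.96, Msmo1, the methylsterol monooxygenase, by 0.83, the sterol isomerase Ebp by 0.79 and the sterol desaturase Sc5d by 0.64 on this scale.

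The smallest fall was that of Hsd17b7, a reductase of the same demethylation. It had 44.0, 44.1 and 39.6 CPM in Control and 34.7, 35.3 and 36.1 CPM in Ad-OSCAR cultures, with no overlap. Its log2 fold change was -0.27 (SE 0.053, adjusted p = 0.000209 by edgeR's quasi-likelihood test). Ggps1, which makes geranylgeranyl diphosphate for protein prenylation rather than sterol, was the enzyme that rose. It had 30.6, 34.7 and 35.4 CPM in Control and 38.4, 37.6 and 42.8 CPM in Ad-OSCAR cultures. The groups did not overlap, but the log2 fold change was only 0.24 (SE 0.075, adjusted p = 0.00902 by edgeR), and the call was lost without Control replicate 1 (0.17, adjusted p = 0.0727 by edgeR) or without Ad-OSCAR replicate 3 (0.18, adjusted p = 0.0528).

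Of the 6 genes of sensing and uptake, 4 fell, Insig2 rose and Scap did not pass the test in Ad-OSCAR cells (median log2 fold change -0.93). Srebf1 had 234, 209 and 252 CPM in Control and 109.6, 116 and 100.3 CPM in Ad-OSCAR cultures. Its highest Ad-OSCAR value was well below its lowest Control value, with a log2 fold change of -1.09 (SE 0.071, adjusted p = 1.70e-10 by edgeR). Srebf2 had 199.97, 181 and 203 CPM in Control and 104, 115 and 104 CPM in Ad-OSCAR cultures. This was also a fall without overlap, by 0.85 on the log2 scale (SE 0.057, adjusted p = 2.14e-10 by edgeR). Stard4, a carrier that moves sterols between membranes, had 78.8, 76.7 and 74.0 CPM in Control and 38.3, 36.9 and 37.6 CPM in Ad-OSCAR cultures. The replicates of each group lay close together, and the log2 fold change was -1.02 (SE 0.047, adjusted p = 9.54e-13 by edgeR).

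The paralogs Insig1 and Insig2, which both hold SCAP in the endoplasmic reticulum, changed in opposite directions. Insig1, itself a well-known SREBP target, had 67.6, 68.9 and 66.1 CPM in Control and 32.9, 36.6 and 31.9 CPM in Ad-OSCAR cultures. Its values fell without overlap, by 1.00 on the log2 scale (SE 0.055, adjusted p = 1.34e-11 by edgeR). Insig2 had 67.2, 69.7 and 67.8 CPM in Control and 85.7, 86.1 and 94.9 CPM in Ad-OSCAR cultures. All 3 Ad-OSCAR values were above Control, a log2 fold change of 0.38 (SE 0.052, adjusted p = 3.89e-06 by edgeR). Scap, the escort itself, had 67.7, 61.0 and 67.8 CPM in Control and 67.7, 76.4 and 67.3 CPM in Ad-OSCAR cultures. These values overlapped, with a log2 fold change of 0.11 (SE 0.063, adjusted p = 0.152 by edgeR).

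All 10 genes of the fatty acid list were lower in Ad-OSCAR than in Control cells, with a median log2 fold change of -1.25. None of the 10 was higher, also by DESeq2 or at an unadjusted p of 0.05 in edgeR. Elovl6, which elongates C16 fatty acids, had 65.8, 68.9 and 68.3 CPM in Control and 16.7, 19.4 and 18.7 CPM in Ad-OSCAR cultures. The Ad-OSCAR mean was 27.0% of the Control mean, a log2 fold change of -1.89 (SE 0.061, adjusted p = 7.19e-15). Fads2, the delta-6 desaturase of polyunsaturated fatty acids, had 251, 232 and 249 CPM in Control and 70.6, 74.3 and 67.2 CPM in Ad-OSCAR cultures. The groups were again far apart, at a log2 fold change of -1.79 (SE 0.052, adjusted p = 1.82e-15). Scd1, a stearoyl-CoA desaturase like Scd2, had 383, 369 and 364 CPM in Control and 118, 119 and 119 CPM in Ad-OSCAR cultures. The spread within Ad-OSCAR cells was very small, and the log2 fold change was -1.65 (SE 0.044, adjusted p = 4.77e-16).

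Paralogs and partner enzymes of this list are set side by side. Scd2 went from 1562, 1507 and 1507 CPM in Control to 500.4, 482 and 483 CPM in Ad-OSCAR cultures, a log2 fold change of -1.64 (SE 0.040) beside -1.65 for Scd1. Fads1, the delta-5 desaturase, had 247, 232 and 254 CPM in Control and 105, 114 and 99.9 CPM in Ad-OSCAR cultures, a log2 fold change of -1.20 (SE 0.054) beside -1.79 for Fads2. Elovl5, which elongates polyunsaturated fatty acids, had 87.5, 86.3 and 86.8 CPM in Control and 57.0, 55.8 and 59.6 CPM in Ad-OSCAR cultures, a log2 fold change of -0.60 (SE 0.046) beside -1.89 for Elovl6. The differences within these pairs were not tested. Among the enzymes that supply and build the chain, the ATP citrate lyase Acly fell by 0.44 on the log2 scale, the acetyl-CoA carboxylase Acaca by 0.70 and the fatty acid synthase Fasn by 0.82. Acss2 had a log2 fold change of -1.31. The genes for Fads1 (chr19:10182888-10196877) and Fads2 (chr19:10062765-10101746) lie near each other in GRCm38, as do those for Scd1 (chr19:44394455-44407879) and Scd2 (chr19:44293674-44306864). For Scd1 and Scd2 the estimated counts were not whole in any of the 9 cultures, so some reads were divided between genes, whereas those of Fads1 and Fads2 were whole throughout.

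**Figure D3:**
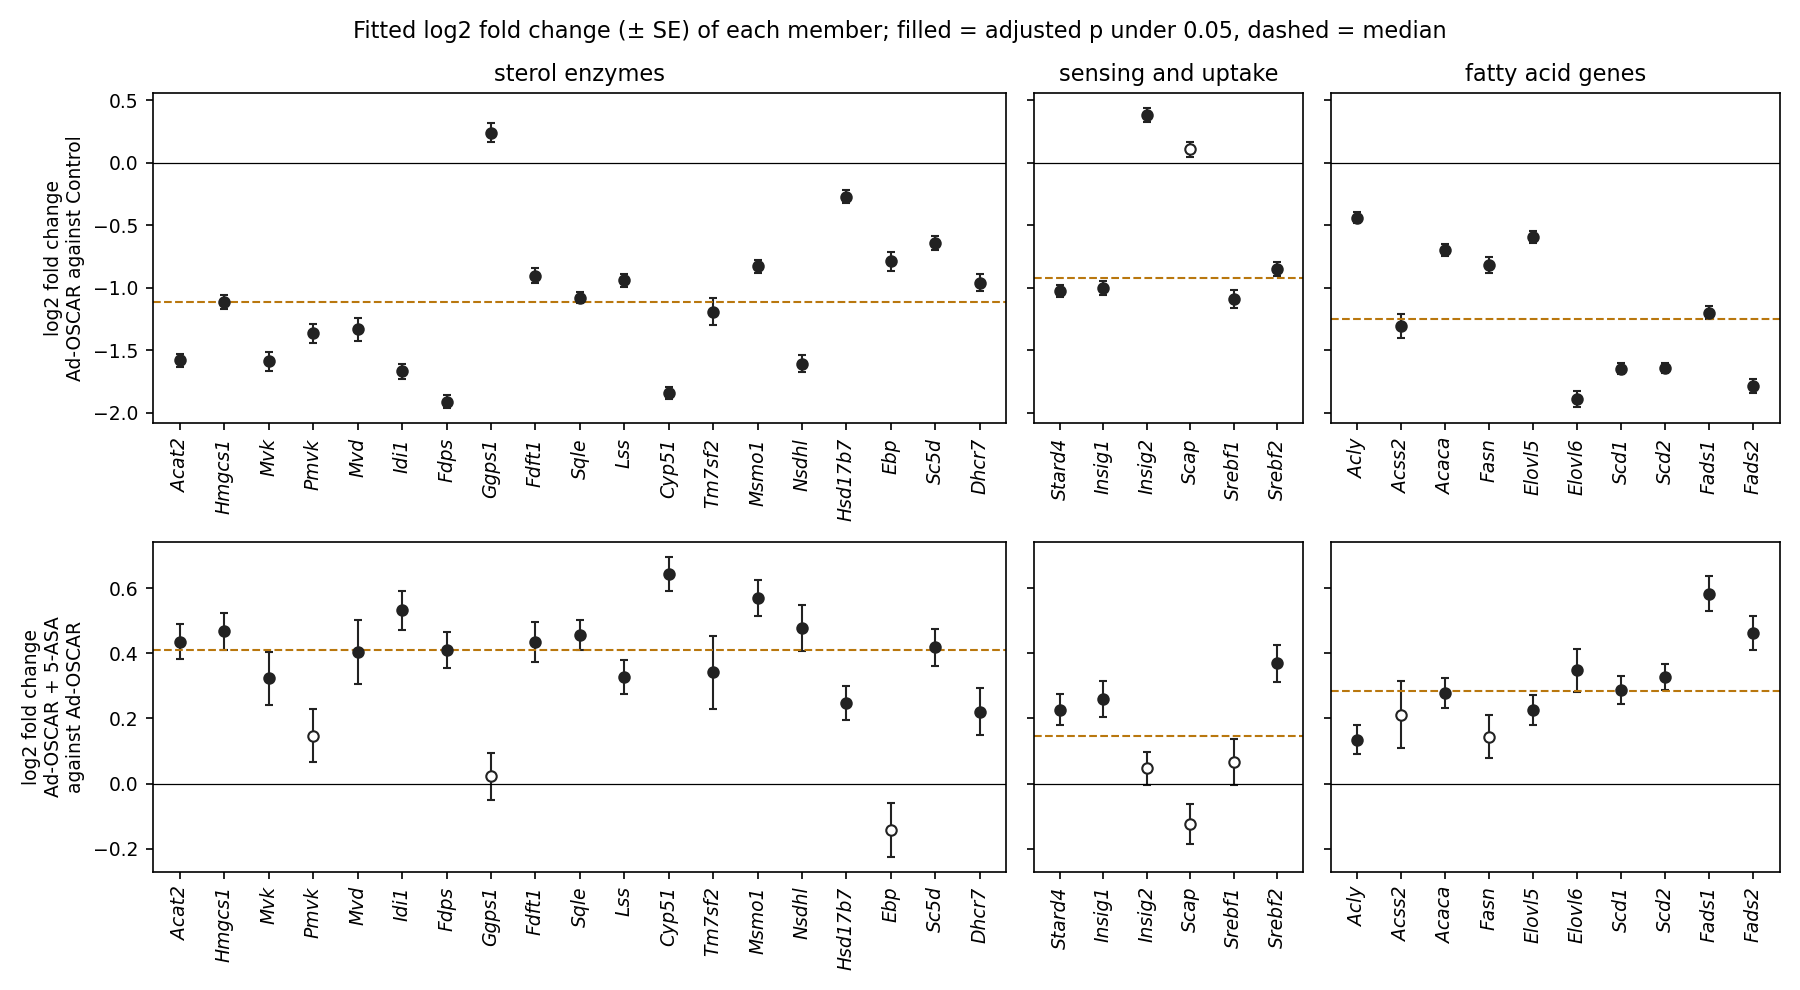
Fitted log2 fold change of each member with its SE, for Ad-OSCAR against Control (top) and Ad-OSCAR + 5-ASA against Ad-OSCAR (bottom), with filled points for an adjusted p under 0.05 (edgeR) and a dashed line at the median of each list. In the top row Ggps1 and Insig2 were the members called above 0, and in the bottom row the 27 filled points were all above 0. The rows have different scales and share the untreated Ad-OSCAR cultures.

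The comparison of Ad-OSCAR + 5-ASA with Ad-OSCAR cells asked how the drug changed these genes when OSCAR was overexpressed. With 5-ASA 27 of 35 members were higher and none was lower, where 10.4% of all genes tested were called higher and 7.38% lower. At an unadjusted p of 0.05, 28 were higher and 0 lower in edgeR, and DESeq2 called 25 higher and 0 lower. The changes were small, with a median log2 fold change of 0.33 over the members and of -0.004 over all genes. All 3 treated values lay above all 3 untreated values in 28 members, against 17.8% of all genes. Only Cyp51 passed the study's 5-ASA limit, 1.5-fold at an unadjusted p of 0.05 (here by edgeR), which 2.27% of all genes passed as higher. The study's methods state this limit for treated cells against Ad-Control instead. In that comparison 24 of 35 members passed it as lower and 0 as higher, where 2351 of all 15362 genes passed as lower. Oscar RNA was itself lower in these cells, with a log2 fold change of -0.97 (SE 0.065, adjusted p = 1.76e-08 by edgeR), and its part in the members' change was not tested.

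Of the sterol enzymes, 16 of 19 rose with 5-ASA (median log2 fold change 0.41), and Pmvk, Ggps1 and Ebp did not pass the test. Cyp51 had 40.6, 41.0 and 41.9 CPM in treated cultures, against 25.2, 27.4 and 26.5 CPM without the drug. The treated mean was 156% of the untreated mean, a log2 fold change of 0.64 (SE 0.052, adjusted p = 1.35e-07). Msmo1 had 61.4, 64.0 and 57.4 CPM with and 38.4, 44.0 and 41.0 CPM without 5-ASA. The groups were clearly separate, at a log2 fold change of 0.57 (SE 0.055, adjusted p = 1.09e-06). Idi1 reached 29.1, 30.0 and 30.2 CPM with the drug, a log2 fold change of 0.53 (SE 0.060, adjusted p = 5.46e-06). The other 13 ranged from 0.22 for Dhcr7 to 0.48 for Nsdhl, and Fdps had 0.41 on this scale. The log2 fold change was 0.15 for Pmvk, 0.02 for Ggps1 and -0.14 for Ebp, which was the lowest of the sterol enzymes. The calls of Dhcr7 (adjusted p = 0.0416 by edgeR) and Tm7sf2 (0.0426) were close to the threshold, and they passed in 8 and 4 of 17 alternative analyses, where adjusted p ranged from 0.0207 to 0.414 for Dhcr7 and from 0.0394 to 0.155 for Tm7sf2. On uncentred TPM 9 of the 19 sterol enzymes were called higher. Mvk, Lss, Hsd17b7 and Dhcr7 lost their calls there and also on TPM centred in each culture.

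In the sensing and uptake list, Srebf2, Insig1 and Stard4 rose with 5-ASA and Srebf1, Scap and Insig2 did not pass the test (median log2 fold change 0.15). Srebf2 had 137, 133 and 147 CPM in treated cultures, against 104, 115 and 104 CPM without the drug. All treated values were the higher ones, with a log2 fold change of 0.37 (SE 0.056, adjusted p = 0.000146 by edgeR). Srebf1 had 114, 104 and 123 CPM with 5-ASA and 109.6, 116 and 100.3 CPM without. Its groups overlapped, at a log2 fold change of 0.07 (SE 0.072, adjusted p = 0.589 by edgeR). Whether the drug's effect differed between Srebf1 and Srebf2 was not tested. Insig1 had 41.0, 38.7 and 41.6 CPM with the drug, a log2 fold change of 0.26 (SE 0.056, adjusted p = 0.00308 by edgeR). Stard4 had 45.2, 43.3 and 43.6 CPM, a log2 fold change of 0.23 (SE 0.048, adjusted p = 0.00257 by edgeR). Both were above every untreated culture. Insig2 had 94.2, 93.8 and 87.4 CPM and Scap 65.5, 59.7 and 68.7 CPM, with log2 fold changes of 0.05 (-0.22 on uncentred TPM) and -0.12. On uncentred TPM only 1 gene of this list was called higher and Scap was lower (-0.29, adjusted p = 0.0498 by limma). The median of the list was then 0.062.

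In the fatty acid list, 8 of 10 genes rose with 5-ASA (median log2 fold change 0.28), and Fasn and Acss2 did not pass the test. Fads1 had 154, 163 and 161 CPM in treated and 105, 114 and 99.9 CPM in untreated cultures. The treated mean was 149.7% of the untreated mean, a log2 fold change of 0.58 (SE 0.053, adjusted p = 5.66e-07). Fads2 had 98.7, 92.9 and 100.2 CPM with the drug, a log2 fold change of 0.46 (SE 0.052, adjusted p = 6.50e-06). Elovl6 had 21.8, 24.7 and 23.1 CPM, a log2 fold change of 0.35 (SE 0.066, adjusted p = 0.00109). All 3 genes were above each untreated value. The related Elovl5 had 67.1, 69.2 and 65.5 CPM with 5-ASA and a log2 fold change of 0.23. Scd1 had 146, 148 and 140.0 CPM and Scd2 623, 607 and 608 CPM, with log2 fold changes of 0.29 and 0.33, where that of Scd1 was -0.03 on uncentred TPM. Fasn had 201, 175 and 219.5 CPM with and 179.5, 189 and 169.7 CPM without 5-ASA. Replicate 2 of the treated cultures lay within the untreated range, and the log2 fold change was 0.14 (SE 0.067, adjusted p = 0.155). Without that culture it was 0.23 (adjusted p = 0.0134 by edgeR). Acly, at 0.13 (adjusted p = 0.0408), passed in 6 of 17 alternative analyses, where adjusted p ranged from 0.00575 to 0.591. On uncentred TPM, 13 members were called higher and Scap lower, and of all calls 27.7% were higher, against 58.5% on counts.

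Treated cells were then set against Control, and most members were below it. With 5-ASA 31 of 35 were lower than in Control, Ggps1 and Insig2 were higher, and Hsd17b7 and Scap did not pass the test, where 31.8% of all genes were called lower and 31.4% higher. The median log2 fold change was -0.74, against 0.01 over all genes. The treated values lay below every Control value in 31 members and above in 2, against 33.2% and 33.4% of all genes. This comparison shares the Control cultures with the first and the treated cultures with the second, so the values are given side by side. Hsd17b7 had 42.7, 42.2 and 40.8 CPM in treated cells, within its range in Control, with a log2 fold change of -0.02 (SE 0.052, adjusted p = 0.710 by edgeR). The treated mean of Sc5d was 85.8% and that of Msmo1 83.4% of the Control mean. At the other end were Elovl6 with 34.2%, Fdps with 35.2%, Scd1 with 39.0% and Fads2 with 39.9% of the Control mean. Srebf1 was at 49.1% and Srebf2 at 71.5%, where without the drug they were at 46.9% and 55.4%.

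The sterol arm and the fatty acid arm were also set against each other within each culture. Relative to Control, the mean log2 CPM of the 19 sterol enzymes was -1.13 ± 0.05 in Ad-OSCAR and -0.77 ± 0.02 in treated cultures (SD, n = 3). The 10 fatty acid genes were at -1.20 ± 0.03 and -0.90 ± 0.03, given side by side without a test. The 6 sensing and uptake genes, with Insig2 and Scap among them, were at -0.58 ± 0.05 and -0.44 ± 0.05. The mean over the sterol enzymes exceeded the fatty acid mean by 0.07, 0.10 and 0.06 in the Ad-OSCAR cultures and by 0.18, 0.14 and 0.08 in the treated cultures, on the log2 scale. The difference was above 0 in all 6, and the ranges of both groups overlapped. The sterol mean includes Ggps1, which rose by 0.24 on the log2 scale with OSCAR, and the difference without it was not computed. It was given no test, since the members were chosen with results known. In summed TPM, the sterol enzymes held 950.1 ± 9.26 in Control, 419 ± 10.5 in Ad-OSCAR and 509 ± 2.53 in treated cultures. The fatty acid genes held 1312 ± 33.7, 552 ± 8.89 and 625 ± 18.3 TPM. Both of these sums were lower without overlap in the Ad-OSCAR than in the Control cultures, and the treated cultures lay in between. The sensing and uptake genes held 388 ± 8.36 TPM in Control, 283 ± 10.0 in Ad-OSCAR and 275 ± 23.3 in treated cultures. There the treated and untreated Ad-OSCAR cultures overlapped.

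**Figure D4:**
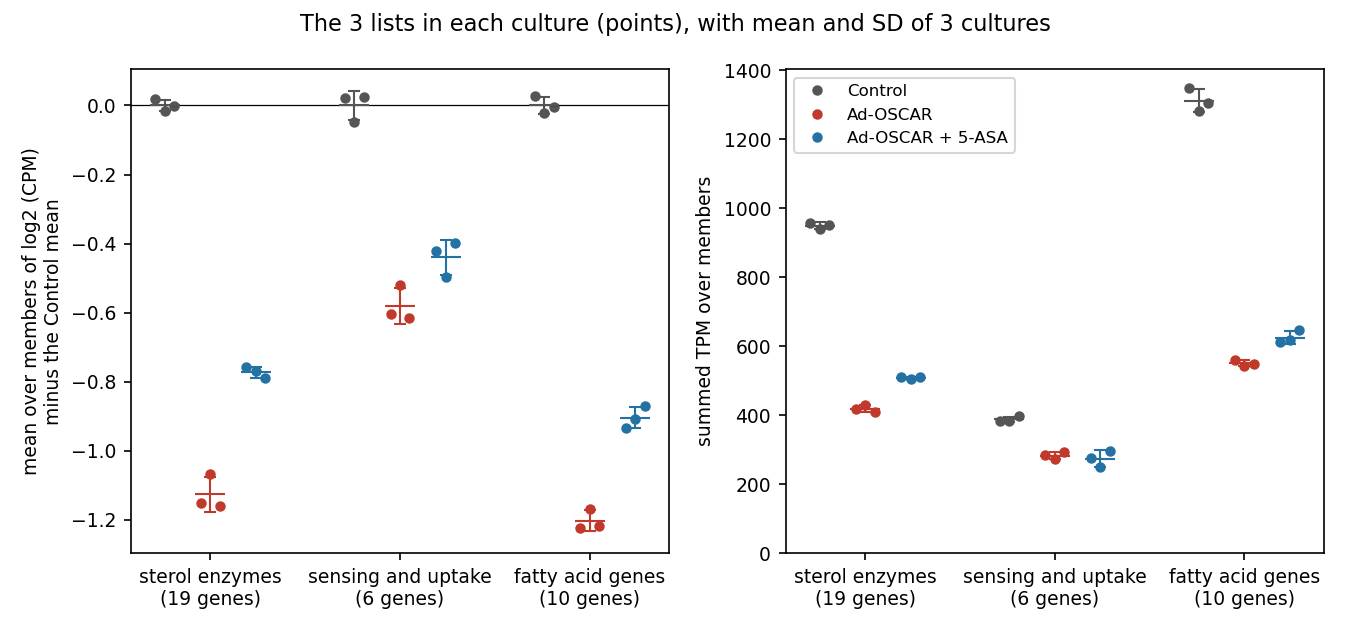
Left, mean over the members of each list of log2 CPM minus the Control mean; right, summed TPM of each list; points are cultures, and the horizontal marks and bars give the mean and SD of 3 cultures. The sterol and fatty acid lists stood near -1.13 and -1.20 in Ad-OSCAR cells and near -0.77 and -0.90 with 5-ASA.

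Other genes of the pathway were grouped by function into 6 lists, and not all of these fell with OSCAR. Over all genes tested, 32.7% were called higher and 32.2% lower with OSCAR, and 10.4% higher and 7.38% lower with 5-ASA. The counts of these small lists were not tested against those shares. Of 9 genes for cofactors, acetyl donors and storage of sterols, 7 fell and 2 rose with OSCAR (median log2 fold change -0.65). With 5-ASA 4 rose and none fell, also by DESeq2, and at an unadjusted p of 0.05 in edgeR 6 rose and 0 fell. Tmem97, a sterol-responsive membrane protein, had 42.6, 39.6 and 45.7 CPM in Control, 10.7, 12.3 and 11.6 CPM in Ad-OSCAR and 12.7, 12.8 and 13.4 CPM in treated cultures. It fell with OSCAR without overlap, by 1.89 on the log2 scale (SE 0.071, adjusted p = 5.94e-14), and its change with 5-ASA was 0.17 (adjusted p = 0.146 by edgeR).

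Of 13 genes of SREBP processing and sterol-regulated degradation, 6 rose and 5 fell with OSCAR (median log2 fold change 0.11). Among all genes 32.7% rose and 32.2% fell. The proteases that cleave SREBP went in opposite directions: Mbtps1 fell by 0.42 and Mbtps2 rose by 0.49 on the log2 scale. Erlin1, which binds sterol-rich membrane of the endoplasmic reticulum, fell by 1.07 on this scale (SE 0.056, adjusted p = 6.70e-12). Of 16 tested among 19 genes of fatty acid supply and elongation, 10 fell and 5 rose with OSCAR (median log2 fold change -0.24), and 5 rose with 5-ASA. Hacd1, a dehydratase of elongation, fell by 1.00 on the log2 scale (SE 0.074, adjusted p = 1.04e-09). Of 8 genes of the isoprenoid branches, which make ubiquinone, dolichol and prenyl groups, 4 fell and 3 rose with OSCAR. None of the 8 passed the test with 5-ASA, and none did by DESeq2 or at an unadjusted p of 0.05 in edgeR. With the drug only 10.4% of all genes were called higher and 7.38% lower, so few calls among 8 genes say little.

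In the small lists for glycerolipid synthesis and for LXR more genes rose than fell with OSCAR, where 32.7% of all genes were called higher. Of 7 glycerolipid genes, 5 rose with OSCAR and none fell (median log2 fold change 0.64), also by DESeq2 or at an unadjusted p of 0.05 in edgeR. Dgat2, which makes triacylglycerol, had 42.4, 41.5 and 44.3 CPM in Control, 123, 131 and 114 CPM in Ad-OSCAR and 128, 120.1 and 131 CPM in treated cultures. It rose by a log2 fold change of 1.52 (SE 0.058, adjusted p = 8.28e-14) and overlapped between treated and untreated Ad-OSCAR cells. Plin2, a coat protein of lipid droplets, had 35.9, 36.9 and 36.8 CPM in Control, 102, 99.1 and 102 CPM in Ad-OSCAR and 84.2, 87.5 and 84.1 CPM in treated cultures. Its log2 fold change was 1.47 with OSCAR (SE 0.046, adjusted p = 4.91e-15) and -0.24 with 5-ASA (adjusted p = 0.000539). Among 6 LXR receptors and targets, 4 rose and 1 fell with OSCAR (median log2 fold change 0.25). The cholesterol exporter Abca1 had 75.4, 81.3 and 79.6 CPM in Control, 204, 182 and 211 CPM in Ad-OSCAR and 138, 135 and 153 CPM in treated cultures. These 3 groups did not overlap, with log2 fold changes of 1.34 with OSCAR (SE 0.061, adjusted p = 1.09e-12) and -0.49 with 5-ASA (SE 0.059, adjusted p = 1.35e-05). Abcg1, another sterol exporter, had 0.86 to 1.18 CPM in Control, 5.37 to 7.06 CPM in Ad-OSCAR and 1.88 to 2.25 CPM in treated cultures. It was the gene of these lists with the largest change in both comparisons, 2.59 (SE 0.178, adjusted p = 3.69e-10) and -1.61 (SE 0.152, adjusted p = 7.36e-07) on the log2 scale, at a low level.

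**Figure D5:**
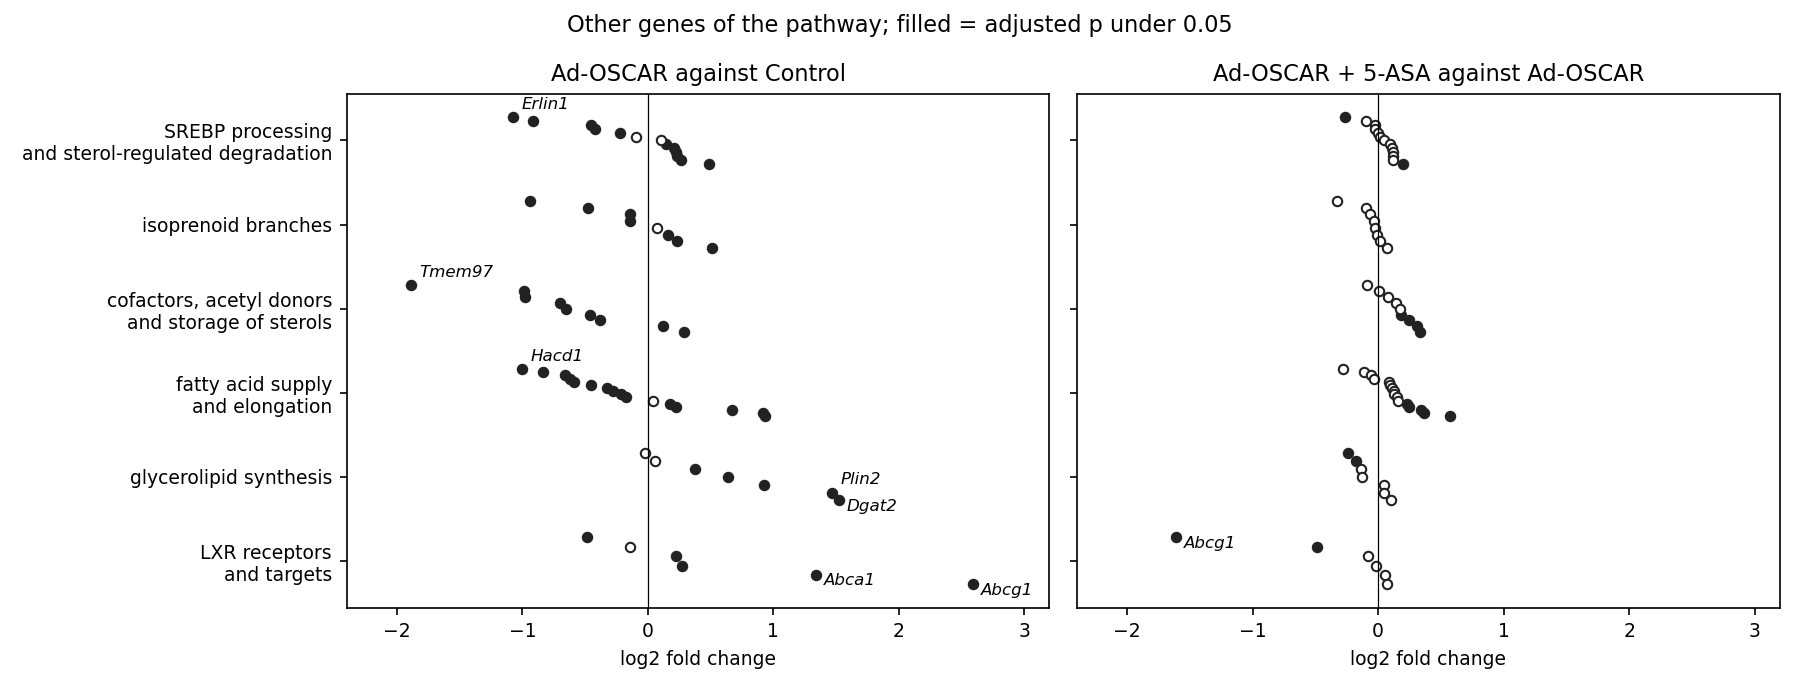
Log2 fold change of 59 other genes of the pathway in 6 lists, for Ad-OSCAR against Control (left) and Ad-OSCAR + 5-ASA against Ad-OSCAR (right), with filled points for an adjusted p under 0.05 (edgeR) and names beyond 1 in either direction. Tmem97 stood lowest on the left (-1.89) and Abcg1 highest (2.59), and Abcg1 was lowest on the right (-1.61).

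Some members share their place in the genome with other genes, and the strand setting of the counting was not stated. Mvd overlapped Gm20388 on the opposite strand along 9822 bases, a gene with 28573 counts over all cultures against 3620 for Mvd. Fdft1 overlapped the abundant cathepsin gene Ctsb along 774 bases, Ggps1 overlapped Arid4b along 257 bases and Acss2 lay over Gss along 22544 bases, all on opposite strands. Tm7sf2 overlapped Vps51 on the same strand along 532 bases. The estimated counts were whole in every culture for 23 members, and for 12 they were not whole in at least 1 culture, so that reads shared with other genes entered their values.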

How the data were processed

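RNA-seq reads of 9 cultures (TruSeq stranded mRNA, paired ends) were trimmed with BBDuk and aligned with STAR 2.7.1a to GRCm38 by the authors, and genes were quantified with RSEM 1.3.1. The strand setting of the counting was not given in the sources used here. The authors deposited estimated counts per gene, which were rounded to whole numbers and tested here. The deposited TPM values of the same files were used for levels between genes and for an alternative test, and the deposited FPKM values were not used.

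Groups were taken from the labels. Genes passing edgeR's filterByExpr (15362 of 55471) were fitted over all 9 cultures with TMM normalization and edgeR's quasi-likelihood test (edgeR 4.0.16, R 4.3.3), with 6 residual degrees of freedom and Benjamini-Hochberg adjustment over all genes tested. CPM values are on the TMM scale. The common biological coefficient of variation was 5.11%, and replicates of a group differed by a chi-square of 4.22 to 8.13 per degree of freedom, so no culture was a copy of another. Gene positions came from GENCODE M21, which held 55230 of the identifiers. Scripts were tested on simulated data.

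All members were described. The value in each culture was given for the 3 called members with the largest change in each list and comparison, for Srebf1, Srebf2, Scap, Insig1, Insig2 and the paralog pairs, and for other pathway genes past 1 on the log2 scale. Hsd17b7, Ggps1, Fasn and Mbtps1 and Mbtps2 were added after their values were seen. The members and lists were chosen with earlier results of these data known. There were 17 alternatives: leaving out each of 9 cultures, RLE normalization, DESeq2 1.42.0, no filter, a minimum of 10 counts throughout, a fit of only 2 groups, a replicate block, limma 3.58.1 on log2(TPM + 0.5), and the same after centring each culture, which was chosen after seeing the data.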

Additional observations from a re-analysis of the deposited data

How the results depend on the processing

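In Ad-OSCAR against Control, 607 of 611 values of single genes under the alternatives kept their direction and their side of the threshold, 2 lost and 2 gained a call and 0 reversed. With 5-ASA against Ad-OSCAR 551 of 611 did, 47 lost and 3 gained a call and 10 reversed, and for treated cells against Control 606 did, 1 lost a call and 4 reversed. On limma of log2(TPM + 0.5), the median of all genes moved by -0.08 with 5-ASA, and members called higher with the drug numbered 13 in all, 9 sterol enzymes, 1 sensing gene and 3 fatty acid genes, with 1 lower (Scap, 1 of the sensing genes). Median log2 fold changes with 5-ASA were then 0.23 over all members, 0.30 for sterol enzymes, 0.062 for sensing genes and 0.18 for fatty acid genes, and 561 of all genes were higher. On the same scale the OSCAR medians were -1.06 for sterol enzymes and -1.16 for fatty acid genes with 2 sensing genes higher. The medians of treated cells against Control were -0.93 for sterol enzymes, -0.71 for sensing genes and -0.81 over all members, with 0 sterol enzymes and 1 member higher. With each culture centred, the OSCAR medians were -1.08 and -1.18 with 2 sensing genes higher, the 5-ASA sterol median was 0.40, and 926 of all genes were higher and 452 lower. The sterol median with 5-ASA was 0.41 by RLE, 0.41 by DESeq2 and 0.40 with only the 2 groups compared.

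Values of 5-ASA that reversed were Ggps1 (-0.16 on TPM, -0.063 centred, and from -0.024 to 0.10 leaving out 1 culture, below 0 without Ad-OSCAR replicate 1 or 2 or treated replicate 1 or 2), Ebp (0.0071 centred), Insig2 (-0.22 on TPM, -0.13 centred) and Scd1 (-0.026 on TPM). Scap in treated cells against Control was 0.059 centred, and from -0.071 to 0.037 leaving out 1 culture, above 0 without Control replicate 1 or 3 or treated replicate 2. None of these passed the test under the alternative. TPM divides by an effective length that in Scd1 was 116% and in Insig2 113% of the untreated length with 5-ASA. With 5-ASA this length was 105.77% of the untreated length in Ggps1 and 89.97% in Ebp. The mean effective length of Scap was 3668.6 in Control and 3487.8 in treated cultures. The part of these lengths in the reversals was not tested, nor was the cause of the reversals seen leaving out 1 culture.

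Leaving out 1 culture at a time, the OSCAR comparison gave 0 to 1 sterol enzymes and 1 to 2 members higher, with medians from -1.16 to -1.08 for sterol enzymes and from -1.08 to -1.04 over all members. With 5-ASA the medians ranged from 0.38 to 0.44 for sterol enzymes and from 0.14 to 0.18 for sensing genes. Genes called lower numbered 721 to 1127 of all tested, with 736 without Ad-OSCAR replicate 1 and 721 without treated replicate 1. Same-numbered cultures did not deviate together (correlations from -0.0724 to 0.0402). With the replicate number as a block, 25 members were higher with 5-ASA, the calls of Tm7sf2 (adjusted p = 0.0564 by edgeR) and Acly (0.0629) being lost, and no member's call changed in the OSCAR comparison. Depth limited genes at low levels, such as Tm7sf2, Acss2 and Abcg1, all under 20 CPM. Some other members, Pmvk and Mvd among them, were also under 20 CPM in Ad-OSCAR cells.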
